A study of Mus musculus with 2 samples.

Results

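The genes described here encode the heat shock proteins and molecular chaperones of mouse bone marrow (BM) LSKs, the lineage-negative, Sca1+, c-Kit+ cells that hold the hematopoietic stem and early progenitor cells. They were taken by name from the deposited tables, as every gene whose symbol starts with Hsp, Dnaja, Dnajb, Dnajc, Cct2 to Cct8 or Bag1 to Bag6, together with Hsf1, and names of pseudogenes (-ps) were left out. This gave 91 genes of 34745. The name rule also brings in Hspg2 (perlecan, a matrix proteoglycan), Hspb11 (a protein of intraflagellar transport) and Hspbap1, which are not known as chaperones.

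All mice were Scl/tTA-BA double transgenics on the C57BL/6 background, in which the Scl regulatory element drives the tetracycline transactivator in stem and progenitor cells and BCR/ABL (BA) is expressed once doxycycline is taken away. At week-0 the mice still carried both transgenes with BA held off by doxycycline in the drinking water, and at week-3 they had been off doxycycline for 3 weeks. Both groups therefore shared the transgenes and the earlier doxycycline, but only the week-0 mice were still on it when cells were taken. BA expression and the absence of the drug cannot be told apart in this design. Each time point was a single RNA-seq library from the pooled LSKs of 3 mice, so there is no replicate check, no p-value is given, and every comparison is between 2 libraries. The age of the mice is not given in the sources used here.

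Molecular chaperones bind unfolded chains and help them to reach or regain their native fold. HSP70 proteins do so in cycles of ATP binding and hydrolysis, in which J proteins (DNAJ, also called HSP40) bring the substrate and start hydrolysis, and nucleotide exchange factors such as BAG proteins and HSP110 reset the cycle. HSP90 acts later on kinases and receptors, BCR/ABL being a known client, the CCT ring folds actin and tubulin, and each organelle has its own HSP70. The transcription factor HSF1 raises the heat-inducible members, while the unfolded protein response raises those of the endoplasmic reticulum (ER).

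Reads assigned to genes numbered 6356164 at week-0 and 3886695 at week-3. The change of a gene is given as the log2 of its FPKM (fragments per unit of exon length and of library size) at week-3 over that at week-0, with a 95% exact Clopper-Pearson interval from the reads, which covers counting error only. Where a pair of reads or FPKM is given, the first value is week-0 and the second week-3, and the ratios take the smaller week-3 library into account. A comparison of FPKM between different genes depends on the exon length assigned to each gene and need not reflect the number of transcripts. Genes with at least 20 reads over both libraries were assessed, and their median log2 ratio was 0.07. The sorting markers Kit and Ly6a (Sca1) were present in both libraries, with log2 ratios of -0.55 and -0.42. Of 10 LSK and stem cell genes, 9 had intervals below a ratio of 1, where 28.5% of all assessed genes did. Flt3 and Procr were among those that fell at least 2-fold. Among lineage genes, Cd3e and Cd8a had 5 and 3 reads at week-0 and were at 0 at week-3, and Itgam had 30 reads in each library. In a bulk library, a smaller share of cells of a type and less RNA per cell cannot be told apart.

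Of the 91 genes, 74 reached 20 reads, and Dnajb8, Dnajc5b, Dnajc5g and Hspb3 had no reads in either library. The members together took 1.43% of week-0 reads and 1.45% of week-3 reads, a difference of 0.02 on the log2 scale (interval 0.004 to 0.034). Their typical level was high. The median FPKM of the members above 0 was 6.08 at week-0 and 6.39 at week-3, against 1.83 and 1.98 for all genes above 0. At week-0, 8 members were at 100 FPKM or more, and 10 members were at week-3.

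**Figure D1:**
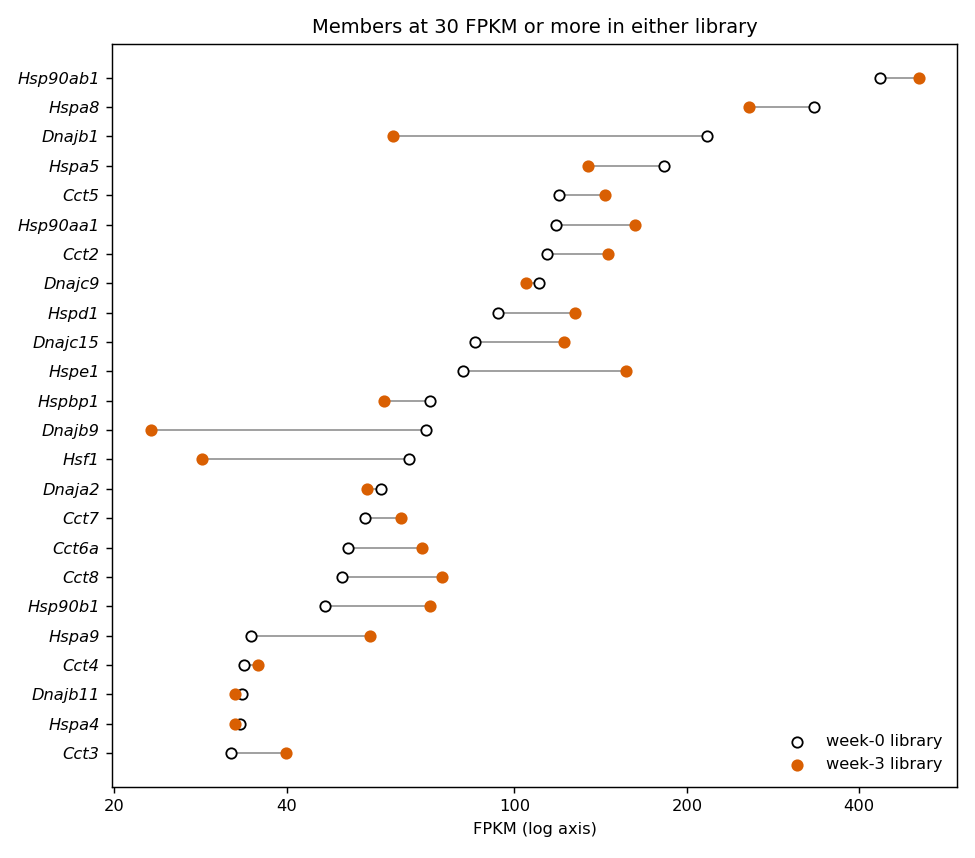
FPKM (log axis) of the 24 members at 30 FPKM or more in either library, ordered by their week-0 level. Open circles are the week-0 library, filled orange circles the week-3 library, with 1 library each and no error bar. Dnajb1, Dnajb9 and Hsf1 moved furthest to the left, and Hspe1 furthest to the right.

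A gene was called when its FPKM ratio was at least 2 or at most 0.5 and its counting interval lay wholly on the same side of 1. By this rule 6 members rose (8.11% of 74), where 10.3% of all 12192 assessed genes did, and 7 members fell (9.46%), where 14.6% of all genes did. The families as a whole therefore held no more called genes than the background. With the trimmed mean of M values (TMM) in place of total reads for scaling, 4 members rose and 9 fell. Of all genes, 8.22% rose and 16.7% fell with TMM. With edgeR's exact test at an assumed biological coefficient of variation of 0.4, no member was called in either direction, whereas some were at 0.1. At 0.4, 0.410% of all genes rose and 1.63% fell. Every call therefore depends on a variation that 1 library per time point cannot measure. Counting any size of change, 28 members had an interval above 1, against 34.0% of all genes, and 18 had an interval below 1, against 28.5% of all genes. The median log2 ratio of the members was 0.14. Beneath these totals the classes of chaperones differed from each other, and they are described in turn.

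The genes that fell were Dnajb5, Hspa1b, Dnajb1, Dnajb13, Dnajb9, Bag3 and Hsf1. Those that rose were Dnajc25, Dnajc12, Dnajc28, Dnaja3, Dnajc2 and Hspbap1, of which Dnaja3 and Dnajc2 had at least 100 reads in each library. Near the fold limit, Dnajc2 (2.06 times) and Hspbap1 (2.04 times) were just inside, and Dnajc18 (1.94 times) and Hspe1 (1.93 times) just outside. On the lower side Hsf1 (0.435 times) was inside, and Dnajb2 (0.518 times) outside.

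The heat-inducible cytosolic chaperones were lower on balance, with Dnajb1 as their most abundant gene to fall. Of 9 genes assessed in this list of 11, 3 fell (Dnajb1, Bag3 and Hspa1b), where 14.6% of all genes did. Of the same 9, 5 had intervals below 1 (55.6%, against 28.5% of all genes) and 1 had an interval above 1 (11.1%, against 34.0%). The median log2 ratio was -0.46, against 0.07 over all genes.

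Dnajb1, the main cytosolic J partner of inducible HSP70 (ENSMUSG00000005483, GRCm38 chromosome 8 from 83608175 to 83611902, plus strand), fell from 3115 reads (217 FPKM) to 539 reads (61.3 FPKM). The week-3 level is 0.283 times the week-0 level, a log2 ratio of -1.82 (interval -1.96 to -1.69). Dnajb1 was number 3 among the members on the FPKM scale at week-0 and number 15 at week-3. Against Hspa8, the constitutive HSP70 it works with, the FPKM of Dnajb1 was 0.651 times as high at week-0 and 0.239 times at week-3. Hspa8 had 19217 and 9071 reads, so the size of this ratio depends on the exon length assigned to each gene. Only its change between the libraries is read here.

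Hsf1 itself, the transcription factor of the heat shock response (ENSMUSG00000022556, chromosome 15 from 76477445 to 76500972, plus strand), had 838 reads (65.3 FPKM) and then 223 reads (28.4 FPKM), a log2 ratio of -1.20 (interval -1.42 to -0.99). Hsf2, a related factor outside the name rule, lay on the other side, with 216 and 178 reads and a log2 ratio of 0.43 (interval 0.14 to 0.72).

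Bag3, which exchanges nucleotide on HSP70 and links it to autophagy, had 105 and 27 reads and a log2 ratio of -1.25 (interval -1.92 to -0.63). Dnajb4 had 208 and 68 reads (2.73 and 1.46 FPKM) and a log2 ratio of -0.90 (interval -1.32 to -0.50). Dnaja1, the farnesylated J protein of the cytosol, had 1482 and 657 reads and a log2 ratio of -0.46 (interval -0.60 to -0.33). These 3 genes were lower at week-3 beyond counting error, whereas the interval of Hspa4l (182 and 91 reads, -0.67 to 0.08) spanned 0.

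Other heat-inducible members gave another picture. Hsp90aa1, the inducible HSP90, had 4927 and 4142 reads (118 and 162 FPKM), a log2 ratio of 0.46 (interval 0.40 to 0.52). Hsph1, an HSP110 exchange factor, had 127 and 89 reads and a log2 ratio of 0.20 (interval -0.21 to 0.60). The inducible HSP70 genes were low in both libraries. Hspa1a had 35 and 25 reads (1.86 and 2.17 FPKM) and a log2 ratio of 0.22 (interval -0.58 to 1.01). Hspa1b had 26 and 4 reads and a log2 ratio of -1.99 (interval -3.97 to -0.46). The FPKM of Hspa1a was 0.0056 times that of Hspa8 at week-0 and 0.0084 times at week-3.

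Hspa1a and Hspa1b lie side by side on chromosome 17, 9951 bases apart, and share much of their sequence. Of all stretches of 100 bases in the Hspa1a transcript, 56.5% occur identically in transcripts of other genes, and 49.9% for Hspa1b, so their reads may have been divided between the copies and their separate ratios are uncertain. The same measure was 47.5% for Hsp90aa1, whose copies are annotated as processed pseudogenes, and 0 for Dnajb1, Bag3, Dnajb4 and Hsf1. Dnaja1, described above as lower, was at 24% by this measure, shared with predicted genes and with Smu1. Of its exonic bases, 10.8% are exonic in other genes, and its ratio carries the same uncertainty.

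Small heat shock proteins, which hold unfolding chains without using ATP, were close to absent. The 7 genes Hspb1, Hspb2, Hspb3, Hspb6, Hspb7, Hspb8 and Hspb9 had 44 and 24 reads summed over the genes. Only Hspb6 reached the minimum (14 and 18 reads, interval of the log2 ratio -0.02 to 2.19). Hspb1 had 8 and 1 reads and Hspb8 had 13 and 1, so Hspb8, at a log2 ratio of -2.99, rested on a single week-3 read (interval -8.40 to -0.26).

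The 16 immediate-early genes listed were Fos, Fosb, Jun, Junb, Egr1, Egr2, Ier2, Ier3, Atf3, Dusp1, Zfp36, Nr4a1, Btg2, Klf2, Klf4 and Klf6. They moved the same way as Dnajb1, Bag3 and Hsf1, and the opposite way to Hsp90aa1 (log2 ratio 0.46). All 16 had intervals below 1, where 28.5% of all genes did, and 14 fell at least 2-fold, where 14.6% did. None was at 0 in either library. Their summed FPKM went from 16535 to 4853, and their median log2 ratio was -1.66. The part of these genes in the fall of the heat-inducible members was not tested.

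**Figure D2:**
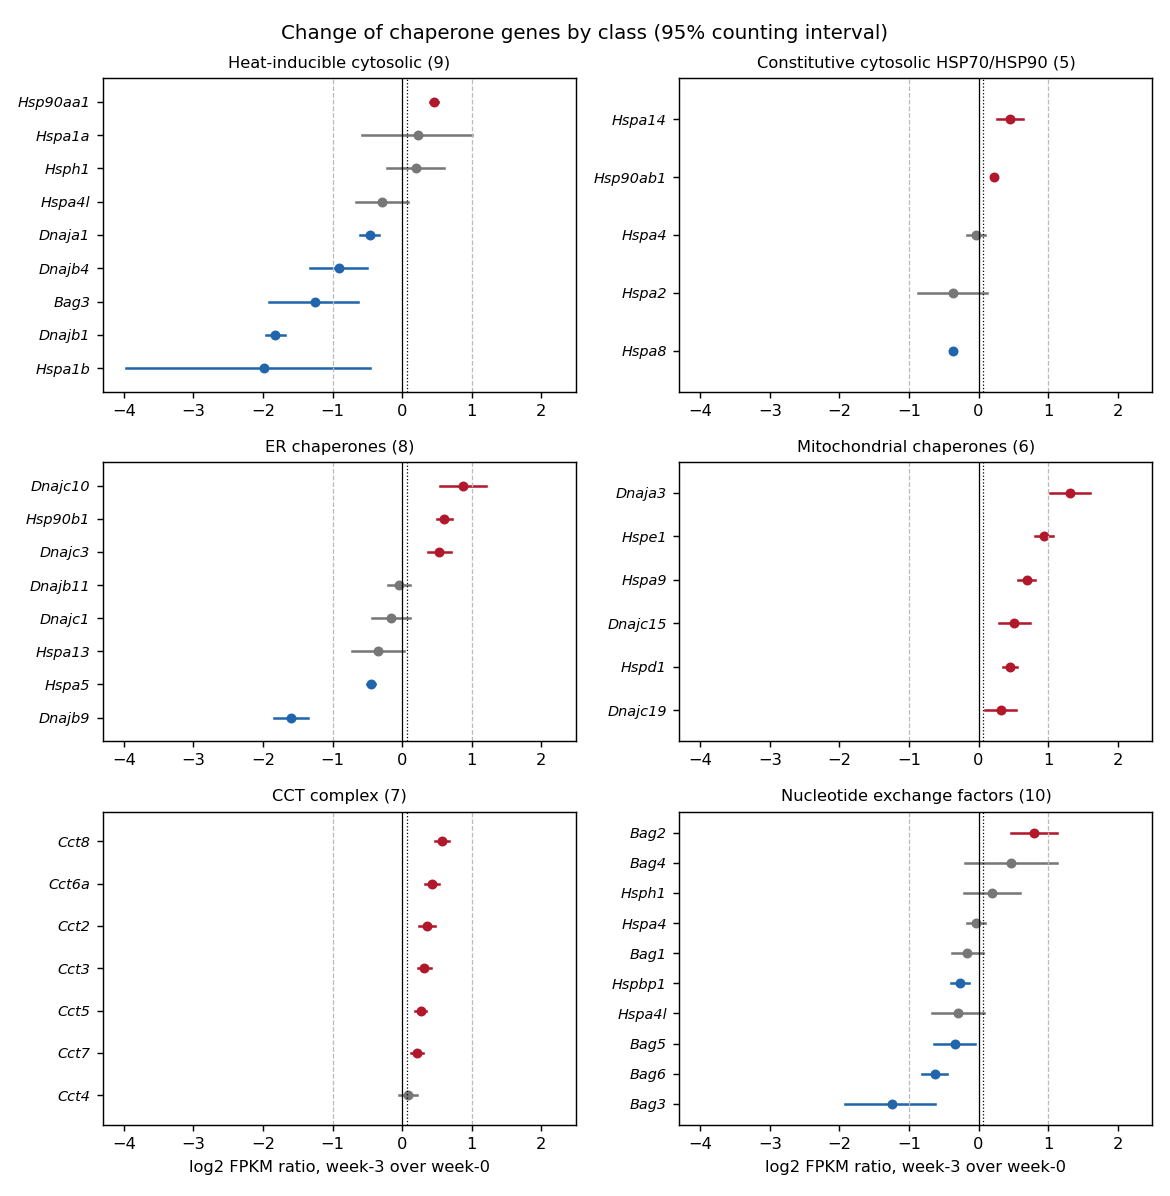
Log2 FPKM ratio of week-3 over week-0 for the members with at least 20 reads in 6 classes; points are ratios and bars 95% counting intervals, red above 0, blue below 0 and grey spanning 0. The dotted line is the median of all genes (0.07) and the dashed lines mark 2-fold; all mitochondrial points lie to the right of 0 and the lowest heat-inducible and ER points lie beyond the left dashed line.

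Of the constitutive cytosolic HSP70 and HSP90 genes, 2 were the most abundant members in both libraries, and none of the 5 passed 2-fold. Hsp90ab1, the constitutive HSP90, had the highest FPKM in both libraries, at 434 and 509 (15965 and 11437 reads, log2 ratio 0.23, interval 0.19 to 0.26). Hspa8, the constitutive HSP70 (HSC70), was second in both, at 333 and 257 FPKM (19217 and 9071 reads, log2 ratio -0.37, interval -0.41 to -0.34). Of its 100-base stretches, 63.4% also occur in other transcripts, among them processed pseudogenes. Hspa14, a ribosome-associated HSP70, had a log2 ratio of 0.46 (interval 0.27 to 0.64). The intervals of Hspa4, an HSP110 (1296 and 776 reads, log2 ratio -0.03), and Hspa2 (110 and 52 reads, -0.37) spanned 0. Over both HSP90 genes of the cytosol the FPKM of the inducible form was 0.272 times that of the constitutive form at week-0 and 0.319 times at week-3. The median log2 ratio of these 5 genes was -0.03, and the class took 0.584% of week-0 reads and 0.560% of week-3 reads.

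Of the 8 ER chaperones, 1 fell (Dnajb9), 2 had intervals below 1 (Dnajb9 and Hspa5), 3 had intervals above 1 (Hsp90b1, Dnajc3 and Dnajc10) and 3 spanned 1. These counts were near the shares of all genes, 28.5% below and 34.0% above, and set the class apart in neither direction. Their median log2 ratio was -0.10. The class took 0.200% of week-0 reads and 0.175% of week-3 reads. With TMM scaling, which lowers the log2 ratio of every gene by 0.11, 5 of the 8 had intervals below 1 and 3 above. The share of all genes with intervals below 1 under TMM was not counted.

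Dnajb9 (ERdj4), a J protein of the ER that is induced by the unfolded protein response and holds the sensor IRE1 in check (ENSMUSG00000014905, chromosome 12 from 44205897 to 44210068, minus strand), fell from 830 reads (70.0 FPKM) to 168 reads (23.2 FPKM), a log2 ratio of -1.60 (interval -1.84 to -1.35). Hspa5 (BiP), the HSP70 of the ER (ENSMUSG00000026864, chromosome 2 from 34771970 to 34777547, plus strand), had 8065 and 3625 reads (183 and 134 FPKM), a log2 ratio of -0.44 (interval -0.50 to -0.39). The FPKM ratio of Dnajb9 to Hspa5, which depends on the exon length assigned to each gene, was 0.384 at week-0 and 0.173 at week-3.

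Hsp90b1 (GRP94), the HSP90 of the ER (ENSMUSG00000020048, chromosome 10 from 86690209 to 86705509, minus strand), went the other way, with 1605 and 1495 reads (46.8 and 71.2 FPKM), a log2 ratio of 0.61 (interval 0.50 to 0.71). Of its exonic bases, 15.7% are also exonic in other genes. The FPKM of Hsp90b1 was 0.256 times that of Hspa5 at week-0 and 0.531 times at week-3. Dnajc10 (ERdj5), a disulfide reductase, had 141 and 158 reads and a log2 ratio of 0.87 (interval 0.54 to 1.21). Dnajc3 (p58IPK), a lumenal J protein that also restrains eIF2 kinases, had 616 and 546 reads and a log2 ratio of 0.54 (interval 0.37 to 0.70). Dnajb11 (ERdj3) had 923 and 548 reads and a log2 ratio of -0.04 (interval -0.20 to 0.11). The intervals of Dnajc1 (330 and 181 reads, log2 ratio -0.16) and Hspa13 (187 and 90 reads, -0.35) also spanned 0.

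Promoter sequences were compared because Hspa5, Hsp90b1 and Dnajc3 are classical targets of the same response and yet did not move together. RefSeq windows (GRCm38.p6) from 250 bases before to 50 bases after each transcription start were found for 74 of the 91 members. The ER stress response element, searched on both strands as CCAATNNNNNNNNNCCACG, was present for 3 of the 7 ER chaperones with a window and for no other member, and for 0.137% of 27025 genes. The 3 were Hspa5, Hsp90b1 and Dnajc3. Their windows are shown with the element in capitals, as Hspa5 on the plus strand at chr2:34771840-34772139, Hsp90b1 on the minus strand at chr10:86705395-86705694 with 2 elements, the second of which reads on the opposite strand, and Dnajc3 on the plus strand at chr14:118937682-118937981.
Hspa5: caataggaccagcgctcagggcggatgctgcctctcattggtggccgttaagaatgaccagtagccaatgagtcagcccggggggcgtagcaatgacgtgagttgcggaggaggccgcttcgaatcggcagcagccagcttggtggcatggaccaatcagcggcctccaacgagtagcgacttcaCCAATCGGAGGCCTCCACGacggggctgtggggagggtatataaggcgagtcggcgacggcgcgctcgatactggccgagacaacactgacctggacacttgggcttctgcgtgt
Hsp90b1: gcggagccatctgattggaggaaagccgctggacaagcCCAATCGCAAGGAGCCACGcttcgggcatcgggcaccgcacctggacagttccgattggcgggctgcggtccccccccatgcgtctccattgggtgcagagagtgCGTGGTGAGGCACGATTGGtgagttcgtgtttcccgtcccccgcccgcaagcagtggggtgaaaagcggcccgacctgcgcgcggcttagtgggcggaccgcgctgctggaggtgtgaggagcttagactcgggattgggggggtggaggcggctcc
Dnajc3: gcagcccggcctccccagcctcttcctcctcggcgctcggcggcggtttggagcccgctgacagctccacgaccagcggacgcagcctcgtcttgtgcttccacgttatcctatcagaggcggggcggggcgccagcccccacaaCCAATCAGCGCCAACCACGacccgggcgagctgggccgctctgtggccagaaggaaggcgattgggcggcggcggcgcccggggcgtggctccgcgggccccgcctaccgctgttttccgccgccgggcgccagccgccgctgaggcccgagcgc
The element of Hspa5 lies from -65 to -47 relative to the first transcribed base, those of Hsp90b1 from -212 to -194 and from -107 to -89, and that of Dnajc3 from -105 to -87. The window of Dnajb9, the ER chaperone that fell, holds no exact match of this spelling. A match is a string of letters and shows no binding.

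Genes of ER folding and of the unfolded protein response that the name rule leaves out also divided. Of 22 genes on this list, 5 rose at least 2-fold, 5 fell, 11 had intervals above 1 and 7 below. Among all genes, 10.3% rose, 14.6% fell, 34.0% had intervals above 1 and 28.5% below. Those on the list that rose were Calr, Canx, P4hb, Pdia6 and Sdf2l1. Calr and Canx, the lectin chaperones calreticulin and calnexin, had log2 ratios of 1.19 and 1.16. The disulfide isomerases P4hb and Pdia6 had 1.07 and 1.02, and Sdf2l1, a partner of BiP, had 1.41. Those that fell were Ddit3, Atf4, Herpud1, Syvn1 and Derl3. Ddit3 (CHOP), the stress-induced transcription factor, had 1477 and 83 reads and a log2 ratio of -3.44, and Atf4, its upstream factor, had 3187 and 864 reads and -1.17. Herpud1 and the ubiquitin ligase Syvn1, both of ER-associated degradation, had -1.23 and -1.48, and Derl3 had -4.06, from 82 and 3 reads. Derl1 (log2 ratio 0.30) and Derl2 (0.67), also of ER-associated degradation, had intervals above 1, and the ER chaperone Hyou1 (-0.79) had an interval below 1. Xbp1 did not differ beyond counting error, at 1454 and 837 reads and a log2 ratio of -0.09. With TMM scaling all log2 ratios are lower by 0.11, and Pdia6 and P4hb are then under 2-fold.

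Plasma cells are rich in ER chaperones, and their genes differed between the libraries. Of 10 plasma cell genes in the tables, 9 reached 20 reads and 8 of these fell, where 14.6% of all genes did. The summed FPKM of the 10 was 10233 at week-0 and 655 at week-3, led by Igkc (8329 and 416 FPKM) and Ighm (1576 and 182 FPKM). Irf4 was at 0 at week-3, and Mzb1 went from 218 reads to 1. Xbp1 and Derl3 are on both this list and that of ER folding. The 9 mast cell genes, of which Mcpt4 and Tpsb2 were at 0 at week-0, all rose, where 10.3% of all genes did. Their summed FPKM was 125 at week-0 and 3233 at week-3. The part of either cell type in the change of the ER chaperones, or of the other classes, was not tested.

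The 6 genes listed as mitochondrial chaperones were higher at week-3 throughout. All 6 genes had intervals above 1, against 34.0% of all genes, Dnaja3 rose past 2-fold, and the median log2 ratio was 0.60. The class took 0.0715% of week-0 reads and 0.112% of week-3 reads. Its log2 ratio of summed reads, 0.65 (interval 0.59 to 0.71), lay above the 0.32 of the CCT complex and the 0.29 of the class C J proteins. With TMM scaling 5 of the 6 genes kept intervals above 1.

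Hspe1 (HSP10, the lid of the mitochondrial chaperonin, ENSMUSG00000073676, chromosome 1 from 55088132 to 55091307, plus strand) had 897 and 1057 reads (81.2 and 156 FPKM), a log2 ratio of 0.95 (interval 0.82 to 1.08). Hspd1 (HSP60, the barrel of that chaperonin, ENSMUSG00000025980, chromosome 1 from 55077835 to 55088243, minus strand) had 1652 and 1379 reads (93.6 and 128 FPKM), a log2 ratio of 0.45 (interval 0.34 to 0.55). The FPKM of Hspe1 was 0.868 times that of Hspd1 at week-0 and 1.22 times at week-3, and the intervals of their log2 ratios did not overlap. Their loci overlap by 112 bases, and 22.4% of the 100-base stretches of Hspe1 and 26.9% of those of Hspd1 occur in other transcripts.

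Hspd1 and Hspe1 are read outward from a shared promoter. The heat shock element was searched on both strands as GAANNTTCNNGAA, which is 3 alternating units. It was found in the windows of 4 members of 74 (Hspd1, Hspe1, Hsph1 and Dnajb6) and of 0.662% of all genes. The window of Hspe1, at chr1:55087898-55088197 on the plus strand, is shown with 2 overlapping elements, 1 on each strand, in capitals.
Hspe1: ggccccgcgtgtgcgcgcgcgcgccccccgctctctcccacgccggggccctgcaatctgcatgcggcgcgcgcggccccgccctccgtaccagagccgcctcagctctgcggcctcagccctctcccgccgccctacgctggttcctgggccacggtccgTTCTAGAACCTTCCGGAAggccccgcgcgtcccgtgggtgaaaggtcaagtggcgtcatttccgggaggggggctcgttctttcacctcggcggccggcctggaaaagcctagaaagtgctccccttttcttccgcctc
These elements run from -89 to -72 relative to the Hspe1 start, and the same letters run from -144 to -127 of the Hspd1 start on the other strand. The Dnajb6 element reads GAATCTTCCGGAA and that of Hsph1 GAACTTTCCAGAA, the latter lying after the annotated transcription start. Of these 4 genes Hspe1 and Hspd1 were higher at week-3, Dnajb6 was lower and the interval of Hsph1 spanned 0. No window was available for Hsf1, Hsp90aa1 or Hspa8. Of the 10 heat-inducible genes with a window, only Hsph1 held an exact match of this spelling, and the others, Dnajb1 among them, held none. A missing exact match does not show that an element is absent.

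Of the other mitochondrial members, Dnaja3 (Tid1), the J protein of the matrix (ENSMUSG00000004069, chromosome 16 from 4639989 to 4707695, plus strand), rose from 169 reads (5.72 FPKM) to 256 reads (14.2 FPKM), a log2 ratio of 1.31 (interval 1.02 to 1.60). Hspa9 (mortalin), the HSP70 of the matrix, had 1102 and 1087 reads (34.6 and 55.8 FPKM), a log2 ratio of 0.69 (interval 0.57 to 0.81). Dnajc15 and Dnajc19, J proteins of the import motor, had log2 ratios of 0.52 (interval 0.29 to 0.74) and 0.32 (interval 0.09 to 0.54). Mitochondrial folding and protease genes outside the name rule were also higher on balance. All 6 had ratios above 1 and 4 had intervals above 1, where 34.0% of all genes did. The protease subunit Clpp had a log2 ratio of 0.96 and the mitochondrial HSP90 Trap1 0.91. Grpel2 and Grpel1, the exchange factors of mortalin, had 0.83 and 0.47. None of the 6 passed 2-fold.

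The CCT complex, a ring of 8 different subunits, was modestly higher as a block. The name rule takes Cct2 to Cct8, and all 7 ring subunits had ratios above 1, 6 of them with intervals above 1 (85.7%, against 34.0% of all genes), and none passed 2-fold. The log2 ratios ran from 0.08 for Cct4 to 0.58 for Cct8, with a median of 0.32. The summed reads had a log2 ratio of 0.32 (interval 0.28 to 0.35), from 0.219% to 0.273% of the library. With TMM scaling the log2 ratio of Cct4 was -0.03 and the other 6 subunits kept intervals above 1.

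On the FPKM scale the ring subunits differed in each library, but that order depends on the exon length assigned to each gene. Cct3, lowest by FPKM at week-0, had 1909 reads there, against 1422 for Cct2. Cct5 and Cct2 were highest, at 120 and 114 FPKM at week-0 and 144 and 145 at week-3. Cct7, Cct6a and Cct8 were at 54.8, 51.3 and 50.03 FPKM at week-0 and at 63.4, 69.0 and 74.7 at week-3. Cct4 and Cct3 were lowest, at 33.7 and 31.9 FPKM at week-0 and at 35.7 and 39.9 at week-3. Among these, the interval of Cct8 (0.48 to 0.68) did not overlap those of Cct2, Cct3, Cct4, Cct5 or Cct7, and that of Cct4 (-0.04 to 0.21) did not overlap those of Cct2, Cct3, Cct6a or Cct8. Of the exonic bases of Cct6a, 15.3% are also exonic in another gene (Psph). Cct6b, the testis form of Cct6a, had 6 and 2 reads, and the Cct8-like gene Cct8l1 had 0 and 2.

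Tcp1, the remaining CCT subunit, is outside the name rule and was also higher, with 1124 and 941 reads and a log2 ratio of 0.45. Of the 8 genes made up of Tcp1, the prefoldins that hand substrates to the ring, and Pdcl3, 5 had intervals above 1. Only Pfdn5, at a log2 ratio of -0.44, had an interval below 1. Among all genes, 34.0% had intervals above 1 and 28.5% below. Within this list Pfdn4 was highest, at 0.83.

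The J proteins, the largest family with 45 genes of which 39 were assessed, went in different directions by class. The letters stand for domain layout, with class A closest to the bacterial DnaJ, class B sharing its glycine-rich linker, and class C sharing only the J domain. Over all 39 genes 5 rose, 4 fell, 13 had intervals above 1 and 10 below, and the median log2 ratio was 0.05. These counts were near those of all genes, of which 10.3% rose, 14.6% fell, 34.0% had intervals above 1 and 28.5% below. All 4 that fell were of class B, and 4 of the 5 that rose were of class C. Class B held 11 of the 39 genes and class C held 25, so most genes in either direction could come from class C by its size.

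**Figure D3:**
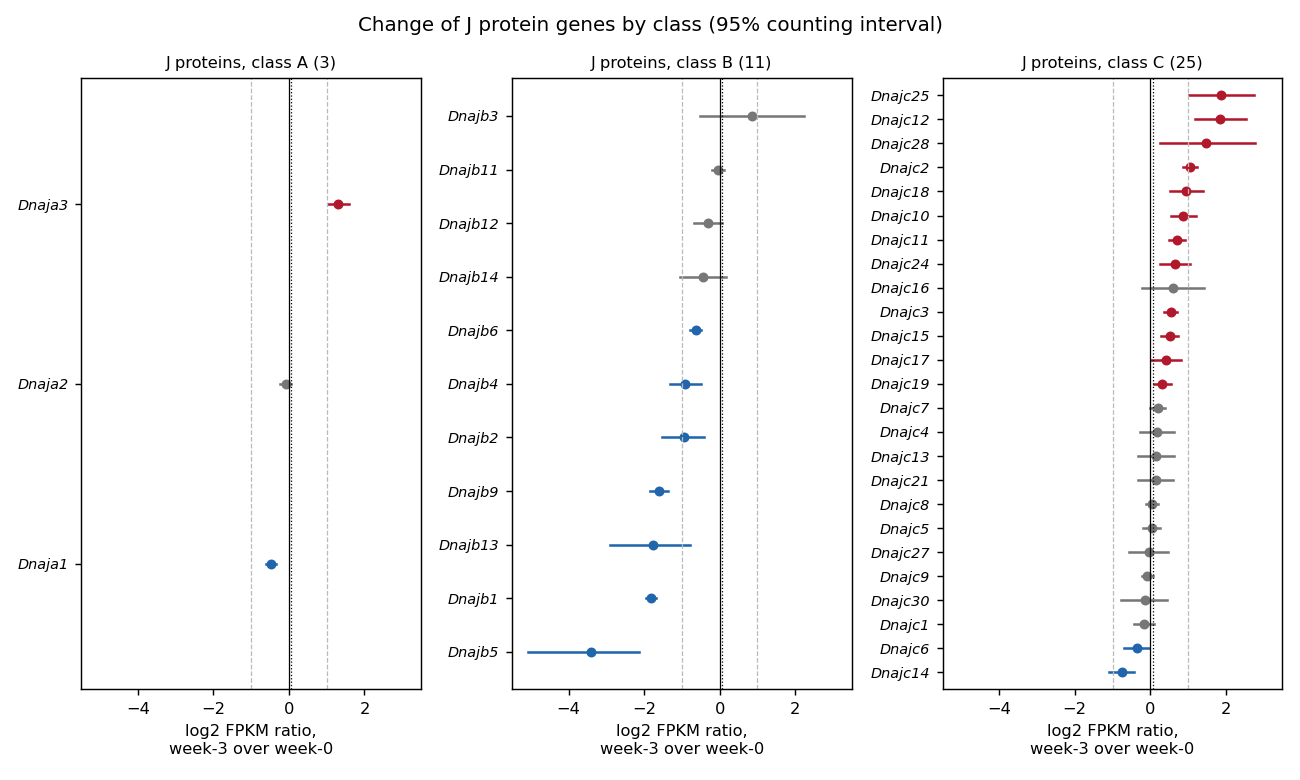
Log2 FPKM ratio of week-3 over week-0 for the 39 J protein genes with at least 20 reads, by class A, B and C; points are ratios and bars 95% counting intervals, red above 0, blue below 0 and grey spanning 0. In class B, 10 of 11 points lie to the left of 0, and in class C, 19 of 25 lie to the right.

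Of the 11 class B genes, 10 had ratios below 1 and 7 had intervals below 1 (63.6%, where all genes had 28.5%), and the median log2 ratio was -0.90. The single ratio above 1 was that of Dnajb3, which had 10 and 11 reads and an interval from -0.53 to 2.24. The summed FPKM of class B was 361 at week-0 and 143 at week-3, most of which was Dnajb1 and Dnajb9.

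Dnajb5, a cytosolic relative of Dnajb1, had the lowest ratio of all members assessed, with 87 reads (1.25 FPKM) and then 5 reads (0.117 FPKM), a log2 ratio of -3.41 (interval -5.07 to -2.13). With 1 FPKM added to both libraries its log2 ratio was -1.01. Dnajb13, known from sperm flagella, had 56 and 10 reads and a log2 ratio of -1.78 (interval -2.91 to -0.79). Of its exonic bases, 11.2% are also exonic in other genes, and 8.26% of its 100-base stretches occur in transcripts of Ucp2. The ratio of Dnajb13 is uncertain to that extent. Dnajb2 had 120 and 38 reads and -0.95 (interval -1.52 to -0.41). Dnajb6, which keeps aggregation-prone proteins soluble, had 1331 and 524 reads (23.7 and 15.3 FPKM) and a log2 ratio of -0.64 (interval -0.78 to -0.49), and 36.3% of its 100-base stretches occur in other transcripts. The membrane-bound Dnajb12 and Dnajb14 had intervals that spanned 0. Dnajb1 was 9.14 times as high as Dnajb6 on the FPKM scale at week-0 and 4.02 times at week-3. These folds depend on the exon length assigned to each gene, since Dnajb1 had 3115 and 539 reads against 1331 and 524 for Dnajb6.

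Class C was higher on balance. Of 25 genes, 19 had ratios above 1, 12 had intervals above 1 (48.0%, where all genes had 34.0%), 2 had intervals below 1, and the median log2 ratio was 0.32. Dnajc2 (MPP11), which sits at the ribosome exit with Hspa14 and was the best-covered gene of this class to rise, had 455 and 574 reads (9.81 and 20.2 FPKM), a log2 ratio of 1.04 (interval 0.86 to 1.23). Its log2 ratio was under 2-fold with TMM (0.93), median-of-ratios (0.96) and a pseudocount of 1 FPKM (0.97). Dnajc25, Dnajc12 and Dnajc28 rested on few reads. Dnajc25 had 18 and 40 reads and a log2 ratio of 1.86 (interval 1.03 to 2.75). Dnajc12, a partner of aromatic amino acid hydroxylases, had 29 and 64 reads and 1.85 (interval 1.20 to 2.54). Dnajc28 had 10 and 17 reads and 1.48 (interval 0.27 to 2.76).

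Dnajc11, of the mitochondrial inner membrane organising system, had 349 and 347 reads and a log2 ratio of 0.70 (interval 0.48 to 0.92), and Dnajc24, of diphthamide synthesis, had 0.64 (interval 0.25 to 1.04). The class C genes with an interval below 1 were Dnajc14 (290 and 105 reads, log2 ratio -0.76) and Dnajc6, the clathrin uncoating factor auxilin (232 and 111 reads, -0.35). Of the 100-base stretches of Dnajc14, 24.6% occur in transcripts of Ormdl2. Dnajc9, a histone chaperone, had the second highest FPKM of the J proteins at week-0. It did not differ beyond counting error, at 110 and 105 FPKM (log2 ratio -0.07, interval -0.21 to 0.06). Dnajc18 (80 and 95 reads, log2 ratio 0.96) and Dnajc17 (119 and 97 reads, 0.41) had intervals above 1, whereas those of Dnajc4, Dnajc5, Dnajc7, Dnajc8, Dnajc13, Dnajc16, Dnajc21, Dnajc27 and Dnajc30 spanned 1. Class A held only 3 assessed genes. Dnaja3 rose, Dnaja1 was lower, and Dnaja2, at 58.5 and 55.4 FPKM, had an interval from -0.23 to 0.07.

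**Figure D4:**
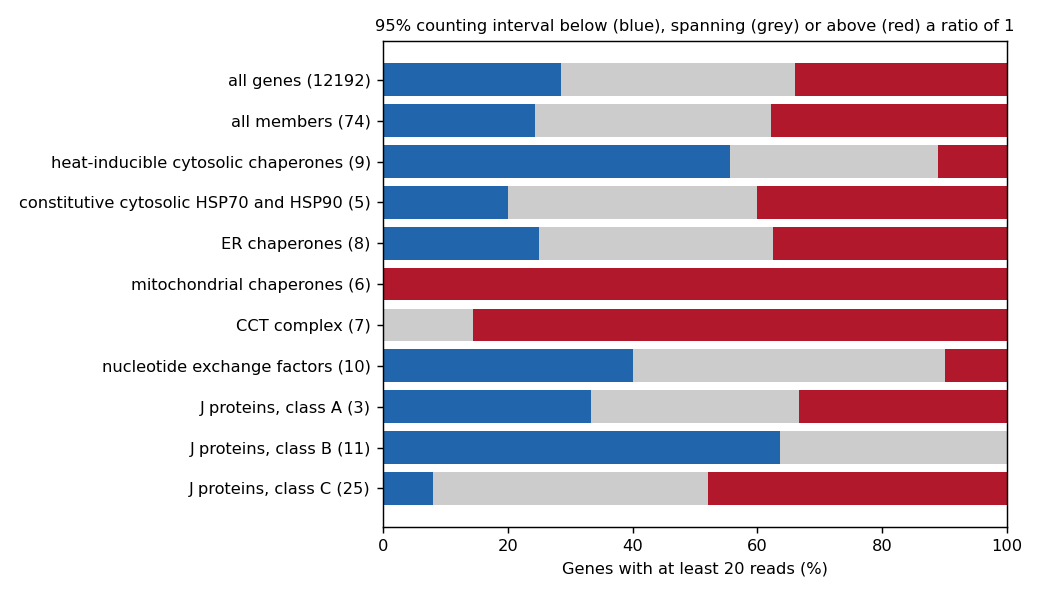
Percentage of genes with at least 20 reads whose 95% counting interval lay below (blue), spanned (grey) or lay above (red) a ratio of 1, for all genes and for each class, with the number of genes in brackets. The classes overlap in membership; the heat-inducible and class B bars are mostly blue, and the CCT and mitochondrial bars mostly red.

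The nucleotide exchange factors, counting Bag1 to Bag6, Hspbp1 and the HSP110 genes, had a median log2 ratio of -0.21. Of 10 genes, 1 fell (Bag3), where 14.6% of all genes did, 4 had intervals below 1, where 28.5% of all genes did, and 1 had an interval above 1, where 34.0% did. With TMM scaling, which lowers the log2 ratio of every gene by 0.11, 7 had intervals below 1, and the matching share of all genes was not counted. Bag6, which guards tail-anchored and mislocalised proteins, had 869 and 343 reads and a log2 ratio of -0.63 (interval -0.82 to -0.45). Bag5 had 296 and 143 reads and -0.34 (interval -0.64 to -0.05). Hspbp1, the most abundant of them, had 1391 and 708 reads (71.2 and 59.3 FPKM) and -0.26 (interval -0.40 to -0.13). Bag2, which inhibits the ubiquitin ligase CHIP, was the exception, with 147 and 156 reads and a log2 ratio of 0.80 (interval 0.46 to 1.13). Bag1 (475 and 260 reads, log2 ratio -0.16) and Bag4 (45 and 38 reads, 0.47) had intervals that spanned 0.

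Co-chaperones of HSP70 and HSP90 outside the name rule were higher on balance, as Hsp90aa1 and Hsp90ab1 were. Among the constitutive cytosolic HSP70 genes, Hspa8 was lower (log2 ratio -0.37) and Hspa14 higher (0.46). Of 12 genes, 8 had intervals above 1, where 34.0% of all genes did, and none had an interval below 1, where 28.5% did. The median log2 ratio of the 12 genes was 0.42. Ptges3 (p23), the late HSP90 co-chaperone, had 3334 and 3753 reads and a log2 ratio of 0.88. The HSP90 activator Ahsa1 and the immunophilin Fkbp4 had 0.45 and 0.44, and St13 (Hip) had 0.63. Fkbp5, a glucocorticoid-induced immunophilin of HSP90, was the only one to rise past 2-fold, from 100 to 280 reads, at 2.20. The kinase-loading factor Cdc37 (2463 and 1596 reads, log2 ratio 0.08), Stip1 (Hop, -0.09) and Unc45a (-0.08) were within counting error of the week-0 level.

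**Figure D5:**
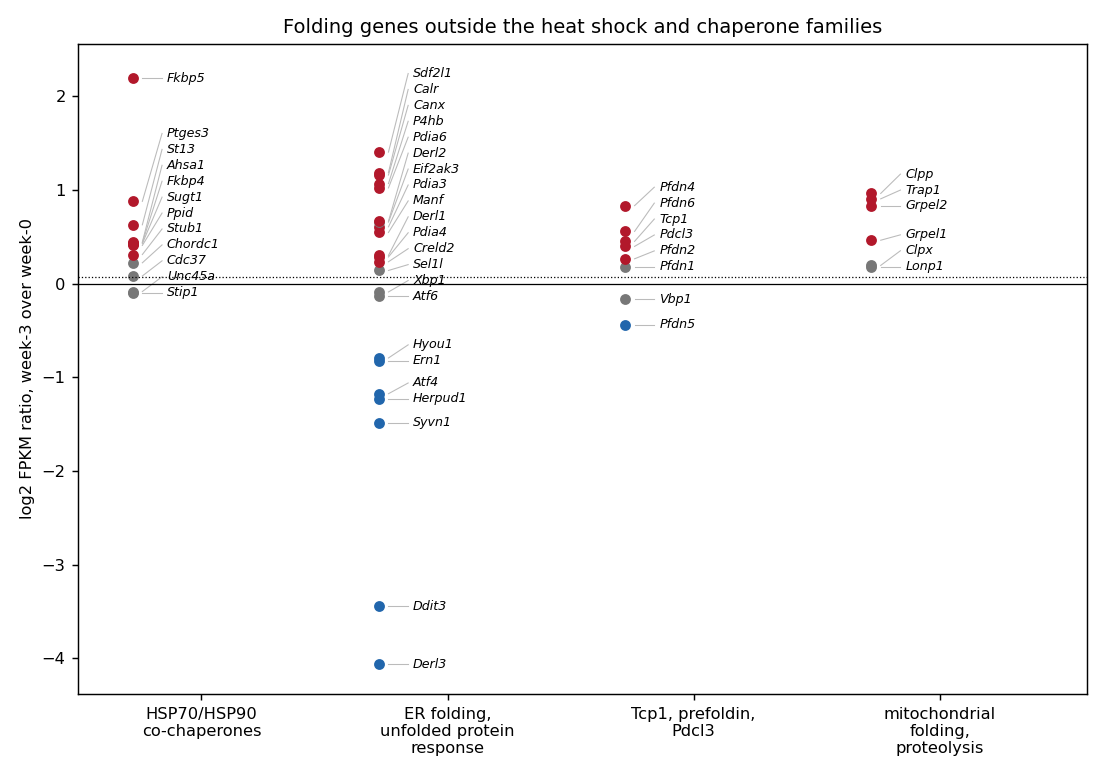
Log2 FPKM ratio of week-3 over week-0 for folding genes outside the name rule, in 4 lists; each point is a gene with at least 20 reads, red with a 95% counting interval above 0, blue below 0 and grey spanning 0, and the dotted line is the median of all genes (0.07). The ER list runs from Derl3 at -4.06 to Sdf2l1 at 1.41, while all mitochondrial points lie above 0 and no co-chaperone point is blue.

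Of the members in no class, Hspbap1 rose, with 28 and 35 reads and a log2 ratio of 1.03 (interval 0.27 to 1.80), although it was under 2-fold with TMM (0.92), median-of-ratios (0.94) and a pseudocount of 1 FPKM (0.60), while the intervals of Hspa12b (33 and 11 reads) and Hspb11 (53 and 29 reads) spanned 0. Members under 20 reads are given by their counts. Among the 17 members under the minimum, 4 had no reads, and Hspg2 (11 and 0), Hspb7 (8 and 0) and Hspa1l (0 and 4) had more than 3 reads in 1 library and none in the other. Dnaja4 had 4 and 6 reads, Dnajb7 had 5 and 4 reads, and Dnajc22 and Hspa12a had 1 and 0 reads each. The upper end of the interval of the log2 ratio was -0.62 for Hspg2 and -0.06 for Hspb7, and the lower end for Hspa1l was 0.11, but Hspa1l shares 70.8% of its 100-base stretches with Hspa1a, Hspa1b and other transcripts. A count of 0 allows up to 3 reads in a library, so genes at 0 were not detectable at this depth rather than shown to be absent. The 12 pseudogene rows left out by name held 21 reads in the earlier library and 23 in the later, of which Hspd1-ps3 had 18 and 20.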

How the data were processed

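RNA of sorted BM LSKs was sequenced as 1 library per time point, each from 3 mice. The authors prepared cDNA with a SMARTer low-input kit, mapped paired-end reads to GRCm38 (mm10) with TopHat2 2.0.9, and deposited read counts per gene, not normalized, and FPKM, scaled by exon length and library reads. The counting tool, its strand setting and the annotation release are not given in the sources used here. The deposited FPKM ratio and the ratio of reads scaled by total reads differed by at most 0.0008 on the log2 scale. No replicates exist, so intervals cover counting error only, and amplification means that separate reads may stem from 1 molecule.

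Members and gene lists were chosen with earlier results of these data known, and the class division of J proteins follows their names. Named genes were those past 2-fold, all of the heat-inducible, constitutive, ER, mitochondrial and CCT lists, Bag1 to Bag6, Hspbp1, Hsf1, the 5 highest and the 5 lowest J proteins by ratio, the 10 highest members, and listed partners past 2-fold; further members and partners were chosen after their values were seen. Strand, exons and transcripts came from GENCODE M21, in which 68 of 91 members have identical coordinates, and promoters from RefSeq (GRCm38.p6). Shared stretches are identical 100-base windows of the longest coding transcript found in transcripts of other genes, on either strand. No protein sequence was used here. Some marker genes are not reported here. The calculation was tested on simulated data. Alternatives used TMM and the exact test of edgeR 4.0.16, the median-of-ratios of DESeq2 1.42.0, other minimum reads, a pseudocount and another fold limit. Python 3.11.15, scipy 1.17.1, pandas 2.3.3 and R 4.3.3 were used.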

Additional observations from a re-analysis of the deposited data

How the results depend on the processing

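Scaling moved the values little but in 1 direction. The median log2 ratio of all genes was 0.07 with total reads, -0.044 with TMM and -0.021 with median-of-ratios. The median of the CCT complex was then 0.21 with TMM, and that of the J proteins as a whole, close to 0, changed sign, to -0.065 with TMM, -0.042 with median-of-ratios and -0.0085 with total reads that leave out the immediate-early, plasma cell and mast cell lists, an alternative chosen after seeing the data. No median of another class changed sign with these scalings. Intervals below 1 numbered 27 among the members with TMM, 24 with median-of-ratios and 18 with total reads. Both alternative scalings lower all genes alike, and their share of all genes with intervals below 1 was not counted.

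Numbers of called members depended on the limits. With a pseudocount of 1 FPKM 2 rose and 6 fell, where 5.02% and 8.09% of all genes did. With at least 100 reads 2 rose and 4 fell, where 7.51% and 11.4% of all genes did. With a fold limit of 1.5, 14 rose and 12 fell, where 21.4% of all genes did in each direction. With edgeR's exact test at an assumed biological coefficient of variation (BCV) of 0.1, 4 rose and 7 fell. At this BCV 9.42% of all genes rose and 13.5% fell. At a BCV of 0.4, 0 members rose and 0 fell, where 50 (0.410%) and 199 (1.63%) of all genes did. Without a minimum the heat-inducible median was -0.90. Leaving out members that share over 10% of their windows, also chosen after seeing the data, gave -0.90 as well, and turned the constitutive median from -0.03 to 0.10. Of 50 named members, 11 left their counting interval with TMM, 6 with median-of-ratios, 2 with the pseudocount and 2 with the reduced totals, and none with an interval on 1 side of 0 changed sign. No paired analysis was possible because each time point is 1 library.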
